A study of Mus musculus with 10 samples.

Results

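The endocannabinoid genes examined here are the cannabinoid receptor gene Cnr1, the synthesis genes Dagla, Daglb and Napepld, and the breakdown genes Faah, Mgll, Abhd6 and Abhd12. They were chosen by gene symbol, and all 8 were found among the 18464 genes of the deposited table, each with 1 entry. The mice were naive Aldh1l1-NuTRAP animals, and the tissue was ventral midbrain with the SNpc and the VTA, its dopaminergic nuclei. In this strain a ribosome tag is switched on in cells with an active Aldh1l1 promoter, as in astrocytes, and RNA bound to the tagged ribosomes makes up the astrocyte fraction, in 5 libraries. The input holds RNA of all cell types of the same tissue, also in 5 libraries. All 10 libraries share the strain and the absence of drug, and each title number (88, 92, 976, 981 and 982) belongs to 1 astrocyte fraction and 1 input library. The labels give neither age nor sex and do not say whether a number is 1 animal, so a p-value here covers only the spread among these libraries, which may be technical.

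Endocannabinoids are lipid messengers made from membrane phospholipids on demand. The main ones are 2-arachidonoylglycerol (2-AG), made by the diacylglycerol lipases that Dagla and Daglb encode, and anandamide, for which the phospholipase encoded by Napepld provides a route of synthesis. Both act on the CB1 receptor, the product of Cnr1, which in brain sits mainly on nerve terminals and dampens transmitter release. 2-AG is broken down by monoacylglycerol lipase (Mgll) and by the hydrolases ABHD6 and ABHD12, and anandamide by fatty acid amide hydrolase (Faah).

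The total of estimated counts was 3845554 in the astrocyte fraction library 92, 24479136 to 26924406 in the other astrocyte fraction libraries and 21812193 to 30878894 in the input. Levels are given as CPM, counts scaled to a common library size, and compared between genes only per kilobase of exon. Aldh1l1, which drives the tag, was at 814 ± 92.3 CPM in the astrocyte fraction and 99.6 ± 7.65 CPM in the input (SD, n = 5 each). All 16 astrocyte markers were higher in the astrocyte fraction, with a median log2 fold change of 3.05. All 15 pan-neuronal markers were lower (median -2.30), with a summed level of 2005 to 2514 CPM in the astrocyte fraction and 8687 to 9836 CPM in the input. None of the 15 was at 0 in an astrocyte fraction library. All 14 oligodendrocyte markers (median -3.72) and all 14 microglia markers (median -4.13) were also lower. Choroid plexus and ependymal markers summed to 12462 and 2654 CPM in the astrocyte fraction libraries 976 and 982, against 115 to 134 CPM in the remaining 3 of that group, and to 3270 and 706 CPM in the input libraries of these 2 numbers, against 26.7 to 42.1 CPM in the other input libraries. Their part in the results was not tested, and values without these 2 numbers are given beside the named genes whose call changed.

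The receptor and the anandamide genes were depleted from the astrocyte fraction, whereas the main 2-AG hydrolase was enriched. Cnr1, Faah and Napepld kept 21.7%, 19.6% and 22.0% of their input level. Mgll was 3.18-fold and Abhd6 2.06-fold higher in the astrocyte fraction. The 2-AG synthesis genes changed less and in opposite directions, with Dagla lower at 64.4% of input and Daglb higher at 1.32-fold, and Abhd12 was not called. In all, 3 of the 8 genes were higher, 4 lower and 1 not called (edgeR quasi-likelihood test, Benjamini-Hochberg adjustment, threshold 0.05). Over all 17672 tested genes, 70.6% were called, 33.1% as higher and 37.5% as lower, so the number of calls among the 8 is no result about them. The groups did not overlap for 7 of the 8 genes, 3 higher and 4 lower, and for 58.2% of all tested genes (27.2% higher and 31.1% lower). The median log2 fold change was -0.36 for the 8 genes and -0.06 for all tested genes.

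**Figure D1:**
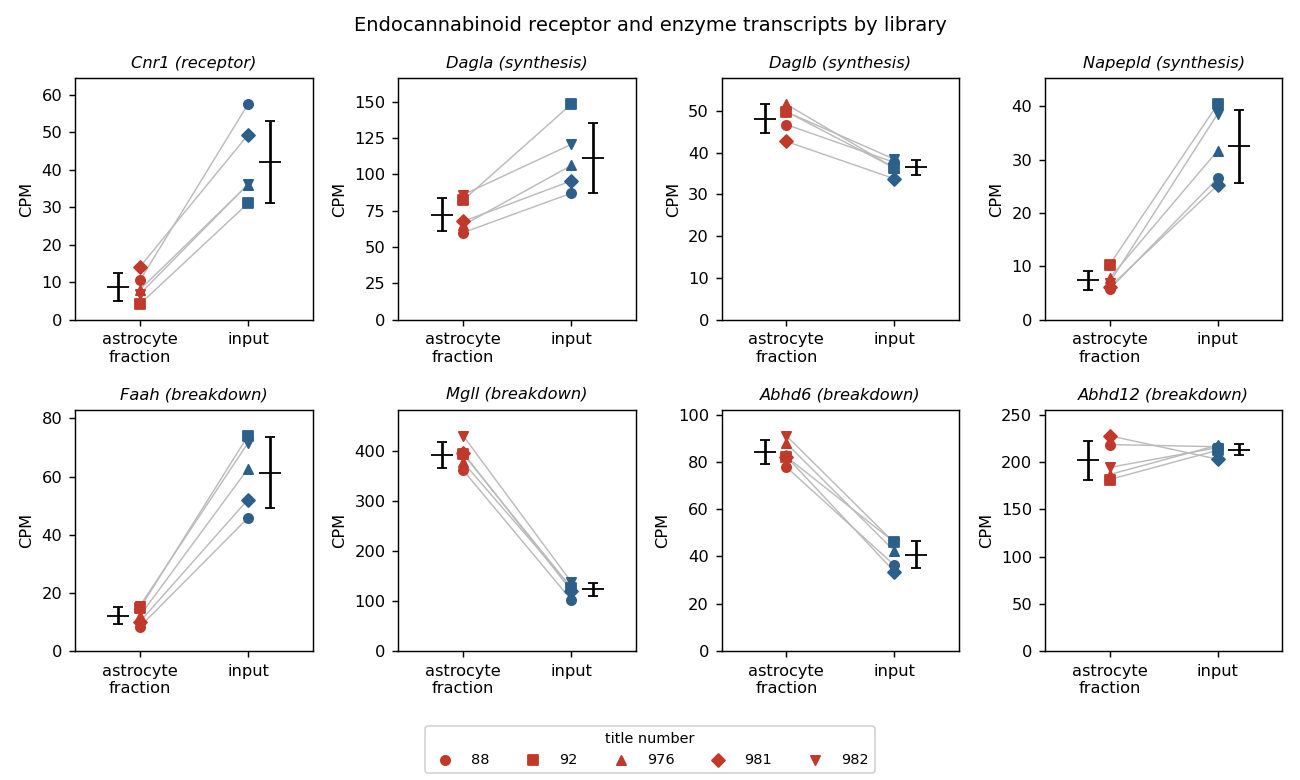
CPM of each gene in each library, with the astrocyte fraction left (red) and the input right (blue). Symbols mark the title number, grey lines join libraries of the same number, and the black bars are mean ± SD of 5 libraries. The groups do not overlap for 7 genes and overlap for Abhd12.

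The stretches before the transcription start are shown for the genes with the largest changes in either direction, as the nearest regulatory sequence that the reference gives for them. They are the 250 bases upstream of the RefSeq start on GRCm38.p6, the assembly of mm10, read 5′ to 3′ on the strand of the gene. Of the 8 genes, 6 were in the promoter table, and where a gene had several starts the most upstream was taken. Capitals mark the GC box core GGGCGG or its complement CCGCCC, and the E-box CACGTG.
Mgll, chr6:88724162-88724411, plus strand: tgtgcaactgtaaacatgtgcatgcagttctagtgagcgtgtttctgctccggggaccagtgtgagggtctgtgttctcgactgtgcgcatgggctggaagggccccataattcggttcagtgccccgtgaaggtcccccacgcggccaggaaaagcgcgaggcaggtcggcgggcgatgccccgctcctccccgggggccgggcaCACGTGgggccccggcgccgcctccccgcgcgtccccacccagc
Abhd6, chr14:8002638-8002887, plus strand: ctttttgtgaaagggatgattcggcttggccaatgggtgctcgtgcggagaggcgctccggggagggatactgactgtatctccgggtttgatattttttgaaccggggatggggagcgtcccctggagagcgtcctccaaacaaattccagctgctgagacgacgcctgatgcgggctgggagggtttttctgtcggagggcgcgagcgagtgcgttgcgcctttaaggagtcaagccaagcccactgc
Cnr1, chr4:33924014-33924263, plus strand: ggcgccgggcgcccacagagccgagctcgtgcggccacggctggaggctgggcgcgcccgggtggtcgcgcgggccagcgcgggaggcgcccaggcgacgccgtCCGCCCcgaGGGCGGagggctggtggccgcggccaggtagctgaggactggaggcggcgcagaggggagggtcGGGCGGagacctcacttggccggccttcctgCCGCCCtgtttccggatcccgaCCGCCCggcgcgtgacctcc
Napepld, chr5:21701623-21701872, minus strand: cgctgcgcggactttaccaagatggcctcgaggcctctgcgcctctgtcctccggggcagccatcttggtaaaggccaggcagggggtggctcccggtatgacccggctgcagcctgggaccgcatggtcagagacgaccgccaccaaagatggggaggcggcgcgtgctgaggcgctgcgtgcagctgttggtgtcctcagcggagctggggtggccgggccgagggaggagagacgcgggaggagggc
Faah, chr4:116017925-116018174, minus strand: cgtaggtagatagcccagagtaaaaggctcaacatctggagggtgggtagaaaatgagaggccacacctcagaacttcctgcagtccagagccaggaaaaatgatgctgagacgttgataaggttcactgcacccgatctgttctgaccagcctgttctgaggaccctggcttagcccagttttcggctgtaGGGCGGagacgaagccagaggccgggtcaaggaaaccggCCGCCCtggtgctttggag
The GC box core was found 5 times before Cnr1 and 2 times before Faah, and not before Mgll, Abhd6 or Napepld in these windows. It occurs in 32.7% of 32851 promoter windows of the same length. The E-box was found before Mgll only among these 5, and occurs in 6.02% of all windows. A TATA box core (TATAAA or TTTATA, in 12.4% of all windows) was in none of the 5. The windows held 23 CG dinucleotides for Mgll, 18 for Abhd6, 36 for Cnr1, 21 for Napepld and 9 for Faah, against a median of 6 over all windows. Further downstream starts gave other matches, since the second window of Mgll and that of Abhd6 held 1 GC box core each and that of Cnr1 held 1 E-box. These letters did not divide the enriched from the depleted genes, and a match is not a binding site.

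Cnr1 (ENSMUSG00000044288, mm10 chromosome 4, 33924593 to 33948831) encodes the CB1 receptor. It had 10.4, 4.11, 7.98, 14.1 and 6.83 CPM in the astrocyte fraction libraries 88, 92, 976, 981 and 982. The input libraries of the same numbers had 57.5, 31.0, 36.0, 49.3 and 36.1 CPM. The groups do not overlap, and the lowest input library was above the highest astrocyte fraction library. The log2 fold change was -2.20 ± 0.34 (SE, n = 5 each, adjusted p = 1.39e-05), and Cnr1 was lower in the astrocyte fraction in all 5 numbers. The lowest value, from library 92, rests on 14 counts, for which the exact Poisson 95% interval is 2.25 to 6.89 CPM and covers counting error only. Of the 15 pan-neuronal markers, 11 had a lower log2 fold change than Cnr1 and 4 a higher one, so its depletion lay within their range of -2.62 to -0.46. The astrocyte fraction is RNA bound to tagged ribosomes, whereas the input is RNA of the whole tissue. Cell type and ribosome binding therefore cannot be told apart in this difference. The part of the remaining neuronal RNA in the Cnr1 level of the astrocyte fraction was not tested. Of 3 other receptor genes tested, 1 was higher, 1 lower and 1 not called. The last was Pparg, which encodes a nuclear receptor for fatty acids (-0.79, adjusted p = 0.0913), and it was called lower without the numbers 976 and 982 (-1.42, adjusted p = 0.0410). Cnr2, the gene of the CB2 receptor, was at 0.289 CPM in the astrocyte fraction and 0.956 CPM in the input (log2 fold change -1.50 ± 0.39, adjusted p = 0.00329), a call lost without the numbers 976 and 982 (adjusted p = 0.112). Ppara, which encodes a nuclear receptor for anandamide-like fatty acid amides, was higher at 16.8 against 1.93 CPM in the input (log2 fold change 3.04 ± 0.32, adjusted p = 6.56e-07).

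All 4 tested genes for proteins that bind CB1 were called lower, where 37.5% of all tested genes were. Gprasp1, which encodes a sorting protein for receptors bound for degradation, had a log2 fold change of -2.01 ± 0.11, and its relative Gprasp2 had -1.93 ± 0.22. Sgip1, whose product slows CB1 internalization, had -0.79 ± 0.19. The change of Cnrip1, a CB1-interacting protein gene, was small (-0.22 ± 0.07, adjusted p = 0.0322) and its call was lost in 8 of the alternatives, among them those without the numbers 976 and 982 (-0.03, adjusted p = 0.844), without number 976 of the astrocyte fraction alone (-0.11, adjusted p = 0.288) and with no filter on low counts (adjusted p = 0.0505).

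Dagla (ENSMUSG00000035735, chromosome 19, 10245265 to 10304877) encodes the lipase that makes most 2-AG at adult synapses. It had 59.8, 82.2, 64.9, 67.6 and 86.0 CPM in the astrocyte fraction libraries 88, 92, 976, 981 and 982, and 87.0, 148, 106, 95.5 and 121 CPM in the input libraries of the same numbers. The groups do not overlap, but the highest astrocyte fraction library (86.0 CPM) was close to the lowest input library (87.0 CPM). The log2 fold change was -0.63 ± 0.17 (SE, adjusted p = 0.00187). Of the 15 pan-neuronal markers, 14 had a lower log2 fold change than Dagla.

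Daglb (ENSMUSG00000039206, chromosome 5, 143464584 to 143505942) encodes the second diacylglycerol lipase, known in mouse for its role in microglia and macrophages. It had 46.8, 49.9, 51.6, 42.7 and 49.8 CPM in the astrocyte fraction libraries 88, 92, 976, 981 and 982, and 37.7, 36.4, 36.3, 33.8 and 38.5 CPM in the input. Every astrocyte fraction library was above every input library, and the log2 fold change was 0.40 ± 0.06 (SE, adjusted p = 0.000405). With library totals in place of TMM the call was lost, since Daglb was then at 0.11 on the log2 scale (adjusted p = 0.241). This scaling moved the median of all genes to -0.34, so Daglb stayed above it. Its exons share 24.1% of their bases with Rac1 on the opposite strand, a gene at 458 ± 40.5 CPM in the astrocyte fraction and 219 ± 9.08 CPM in the input. No source used here states the strand setting of the counting, so the Daglb counts are uncertain and so is every ratio that uses them.

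Napepld (ENSMUSG00000044968, chromosome 5, 21662901 to 21701396) encodes the phospholipase D that releases anandamide and related amides. It had 5.67, 10.3, 7.74, 6.07 and 6.92 CPM in the astrocyte fraction libraries 88, 92, 976, 981 and 982, and 26.5, 40.4, 31.7, 25.2 and 38.6 CPM in the input. The highest astrocyte fraction library lay well below the lowest input library. The log2 fold change was -2.19 ± 0.20 (SE, adjusted p = 2.08e-07), and 12 of the 15 pan-neuronal markers had a lower one.

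Faah (ENSMUSG00000034171, chromosome 4, 115967145 to 116017926) encodes the enzyme that hydrolyses anandamide. It had 8.36, 14.7, 12.1, 10.1 and 15.6 CPM in the astrocyte fraction libraries 88, 92, 976, 981 and 982, and 45.8, 74.0, 62.7, 52.1 and 71.6 CPM in the input. The groups were far apart in every number. The log2 fold change was -2.35 ± 0.21 (SE, adjusted p = 1.87e-07). Faah was the most depleted of the 8 genes, and 6.36% of all tested genes had a lower value. A synthesis and a breakdown gene of anandamide were thus both lower. The log2 ratio of Faah to Napepld counts within a library was 0.72 ± 0.26 in the astrocyte fraction and 0.92 ± 0.10 in the input (SD, n = 5 each). The difference of -0.20 ± 0.13 (SE) did not pass the exact two-sided permutation test over libraries (p = 0.159, adjusted over 4 ratios 0.159). It passed without the astrocyte fraction library 982, the highest of its group, with a difference of -0.31 (exact permutation test, adjusted p = 0.00794). With any other single library left out, it did not pass (same test, adjusted p = 0.151 to 0.302).

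**Figure D2:**
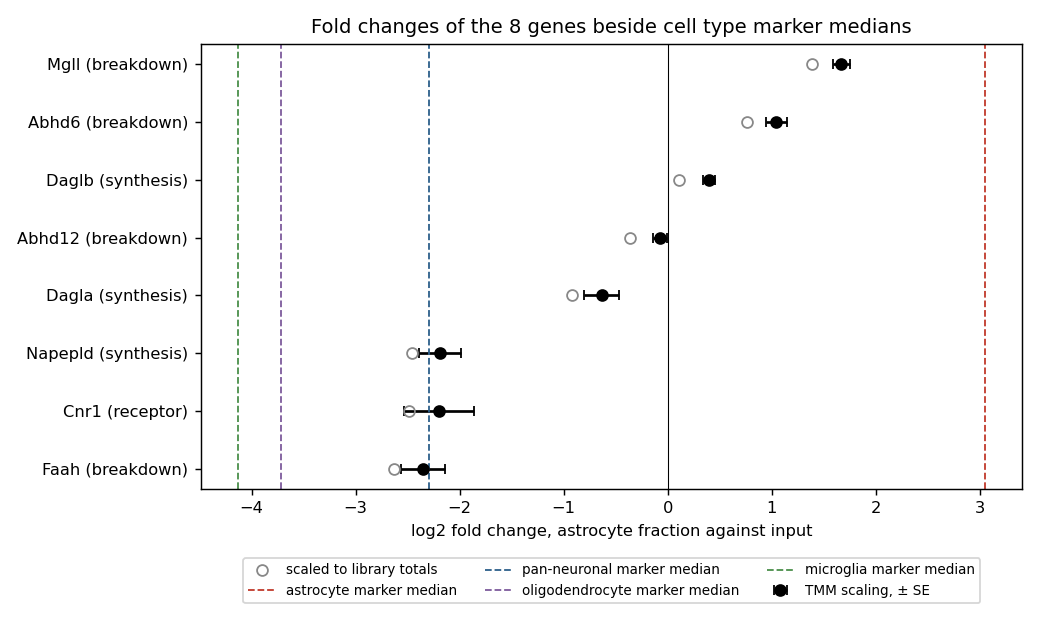
Log2 fold change of each gene, astrocyte fraction against input, with filled points for TMM scaling (± SE, n = 5 each) and open points for scaling to library totals. Dashed lines mark the medians of the astrocyte (3.05), pan-neuronal (-2.30), oligodendrocyte (-3.72) and microglia (-4.13) marker lists. Faah, Cnr1 and Napepld lie beside the pan-neuronal median, and Mgll and Abhd6 lie between 0 and the astrocyte median.

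Mgll (ENSMUSG00000033174, chromosome 6, 88724412 to 88828360) encodes monoacylglycerol lipase, which hydrolyses 2-AG to arachidonic acid and glycerol. It had 362, 394, 378, 396 and 431 CPM in the astrocyte fraction libraries 88, 92, 976, 981 and 982, and 102, 127, 128, 121 and 138 CPM in the input. The lowest astrocyte fraction library was above the highest input library by a wide margin. The log2 fold change was 1.67 ± 0.08 (SE, adjusted p = 2.13e-09) and ran from 1.61 to 1.76 when any single library was left out. All 16 astrocyte markers had a higher log2 fold change, the lowest of them at 2.42. Mgll shares 3.29% of its exon bases with the antisense transcript Gm26588.

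Abhd6 (ENSMUSG00000025277, chromosome 14, 8002902 to 8056763) encodes a membrane hydrolase that acts on 2-AG at its site of synthesis in neurons. It had 77.8, 82.2, 87.8, 82.2 and 91.0 CPM in the astrocyte fraction libraries 88, 92, 976, 981 and 982, and 36.3, 46.0, 42.3, 33.5 and 45.7 CPM in the input. The groups do not overlap, and the log2 fold change was 1.05 ± 0.10 (SE, adjusted p = 6.33e-07).

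Abhd12 (ENSMUSG00000032046, chromosome 2, 150832493 to 150904741) encodes a hydrolase of lysophosphatidylserine and, to a lesser degree, of 2-AG. It had 219, 182, 187, 228 and 194 CPM in the astrocyte fraction libraries 88, 92, 976, 981 and 982, and 216, 213, 218, 203 and 215 CPM in the input. The groups overlap, with 2 of 5 numbers higher in the astrocyte fraction. The log2 fold change of -0.08 ± 0.07 was not called (SE, adjusted p = 0.371). It was called lower with library totals (-0.36, adjusted p = 0.000607) and with genes restricted to a mean of at least 5 CPM (-0.16, adjusted p = 0.0466), and had a positive sign without the numbers 976 and 982 (0.10, adjusted p = 0.360). No direction is therefore given for Abhd12.

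Scaled to exon length, Mgll had the highest mean level of the 8 genes in the astrocyte fraction, at 77.2 ± 5.05 CPM per kb. Abhd12 followed at 71.5 ± 7.20 CPM per kb, and their ranges over the 5 libraries overlap. Abhd6 (35.6 ± 2.21), Dagla (12.5 ± 1.98) and Daglb (5.03 ± 0.367) came next, each with a range that does not overlap its neighbours. Napepld (1.85 ± 0.461), Faah (1.55 ± 0.386) and Cnr1 (1.35 ± 0.586 CPM per kb) were lowest, with overlapping ranges. The order in the input was different. Abhd12 was highest in the input at 75.5 ± 2.09 CPM per kb, and Mgll (24.2 ± 2.59), Dagla (19.4 ± 4.19) and Abhd6 (17.2 ± 2.39) followed, with overlapping ranges between neighbours from Mgll to Abhd6. Napepld (8.20 ± 1.74), Faah (7.82 ± 1.56) and Cnr1 (6.52 ± 1.71) also overlapped in the input, above Daglb (3.82 ± 0.187 CPM per kb).

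The 2-AG hydrolase transcripts had another composition in the astrocyte fraction. Of the summed level per kilobase of Mgll, Abhd6 and Abhd12, Mgll made up 39.2% to 44.1% in the astrocyte fraction libraries and 18.0% to 22.2% in the input libraries. Abhd12 made up 35.8% to 42.7% in the astrocyte fraction and 62.1% to 68.3% in the input, and Abhd6 18.0% to 20.9% in the astrocyte fraction against 12.9% to 16.2% in the input. The summed level of the 3 hydrolases was 177 to 194 CPM per kb in the astrocyte fraction and 110 to 123 CPM per kb in the input. That of Dagla and Daglb was 15.3 to 20.2 CPM per kb in the astrocyte fraction and 19.1 to 29.6 CPM per kb in the input. Breakdown transcripts thus exceeded synthesis transcripts 9.06- to 11.9-fold in the astrocyte fraction and 4.04- to 5.88-fold in the input. Abhd12, whose product acts on 2-AG to a lesser degree, entered the sum at full weight and made up most of it in the input. These sums rest on the same exon lengths and are a description of transcript levels, not of enzyme activity.

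**Figure D3:**
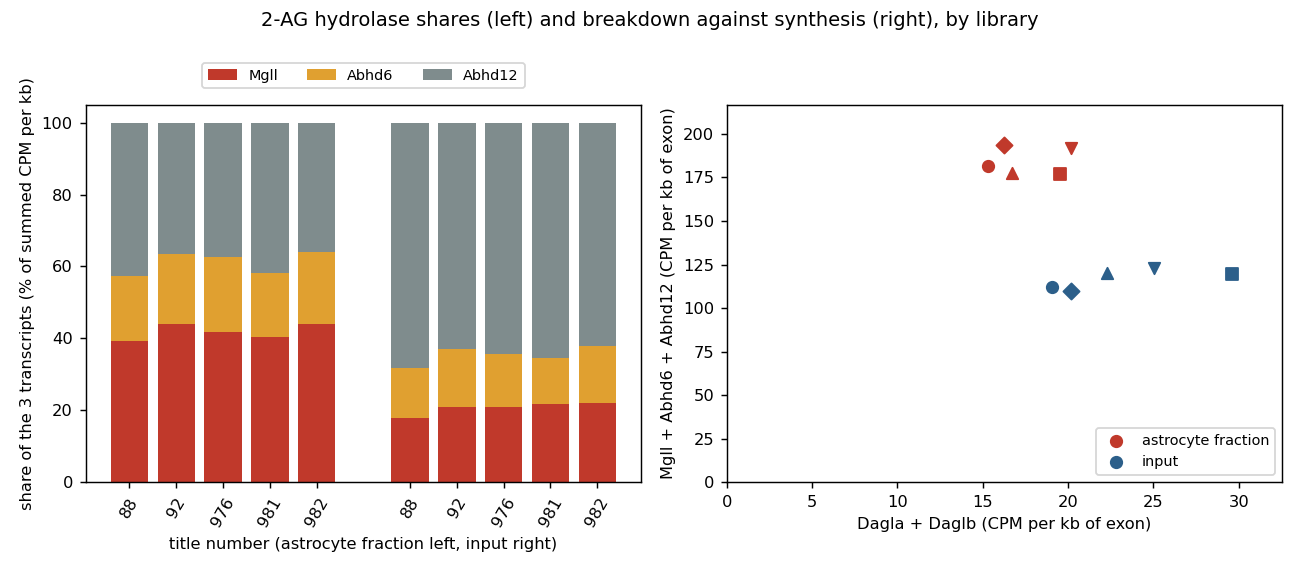
Left, share of Mgll, Abhd6 and Abhd12 in their summed level per kilobase in each library, with astrocyte fraction libraries at the left and input libraries at the right. Right, summed level of the 3 hydrolases against that of Dagla and Daglb, with symbols for the title number as in the plot of levels by library; the astrocyte fraction lies at 177 to 194 and the input at 110 to 123 CPM per kb on the vertical axis.

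Ratios of gene pairs within a library do not depend on how libraries are scaled, and they were tested with the exact two-sided permutation test of 5 against 5 libraries, whose smallest possible p is 0.00794. The log2 ratio of Mgll to Dagla counts was 2.45 ± 0.15 in the astrocyte fraction and 0.16 ± 0.22 in the input (SD, n = 5 each). The difference of 2.29 ± 0.12 (SE) is a 4.90-fold shift towards the 2-AG hydrolase (exact permutation p = 0.00794, adjusted over 4 ratios 0.0106). The log2 ratio of Abhd6 to Abhd12 was -1.26 ± 0.21 in the astrocyte fraction and -2.40 ± 0.18 in the input, a difference of 1.14 ± 0.12 (exact permutation p = 0.00794, adjusted 0.0106). The log2 ratio of Dagla to Daglb was 0.57 ± 0.21 in the astrocyte fraction and 1.59 ± 0.30 in the input, a difference of -1.01 ± 0.16 (exact permutation p = 0.00794, adjusted 0.0106), with the reservation given for Daglb counts. The groups do not overlap for these 3 ratios and overlap for Faah to Napepld. For Mgll to Dagla and for Dagla to Daglb, the single genes were already apart in opposite directions. No overlap and the smallest possible p therefore had to follow for these ratios. Their p-values add nothing to the single-gene results. With the libraries taken as pairs of the same number, 5 pairs cannot go below p = 0.0625, and no ratio passed (exact sign-flip test, adjusted p = 0.0833 for the 3 ratios).

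**Figure D4:**
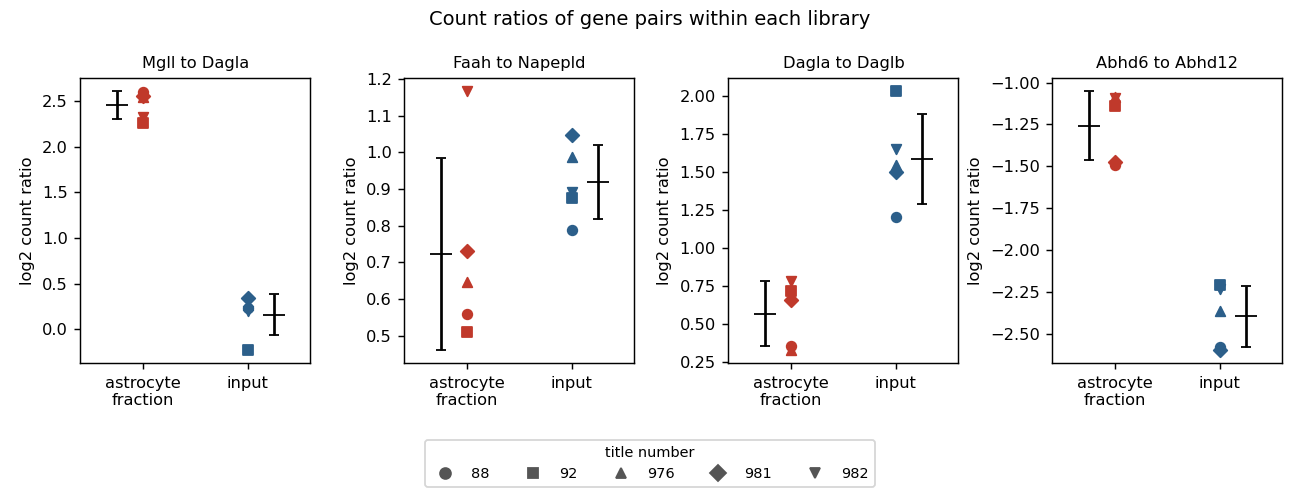
Log2 ratio of counts of the gene pairs in each library, astrocyte fraction left (red) and input right (blue), with symbols for the title number and bars for mean ± SD of 5 libraries. Vertical axes differ between panels and do not start at 0; the groups are apart for Mgll to Dagla, Dagla to Daglb and Abhd6 to Abhd12.

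Within each group, Cnr1 and the depleted enzyme genes varied between title numbers in opposite ways, and the pattern was shared by the astrocyte fraction and the input. Cnr1 was highest in the numbers 981 and 88 in the astrocyte fraction (14.1 and 10.4 CPM) and in the same numbers in the input (49.3 and 57.5 CPM), and lowest in number 92 in both. Faah was lowest in the numbers 88 and 981 in both groups and highest in 982 and 92 in both. Dagla was also highest in 92 and 982 in both groups, and Napepld was highest in 92 and lowest in 88 and 981 in both. Markers of neuron classes also varied between the numbers, and the classes differed in their order. The glutamate neuron markers Slc17a6, Slc17a7 and Slc17a8 summed to 46.7 and 54.9 CPM in the astrocyte fraction libraries 88 and 981, against 134 to 159 CPM in the remaining 3 of that group. In the input they summed to 303 and 345 CPM in the numbers 88 and 981, and to 601 to 713 CPM in the others. The dopamine neuron markers were highest in number 981 in both groups, at 262 CPM in the astrocyte fraction and 1568 CPM in the input, and lowest in 976 and 982, at 69.6 and 79.1 CPM in the astrocyte fraction and 391 and 384 CPM in the input. Number 92, where Cnr1 was lowest, had more of them than number 88. The values were 165 against 141 CPM in the astrocyte fraction and 1070 against 745 CPM in the input. The summed pan-neuronal markers varied less, from 8687 CPM in the input library 88 to 9836 CPM in the input library 92. The part of neuron class composition in the variation of these genes was not tested.

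**Figure D5:**
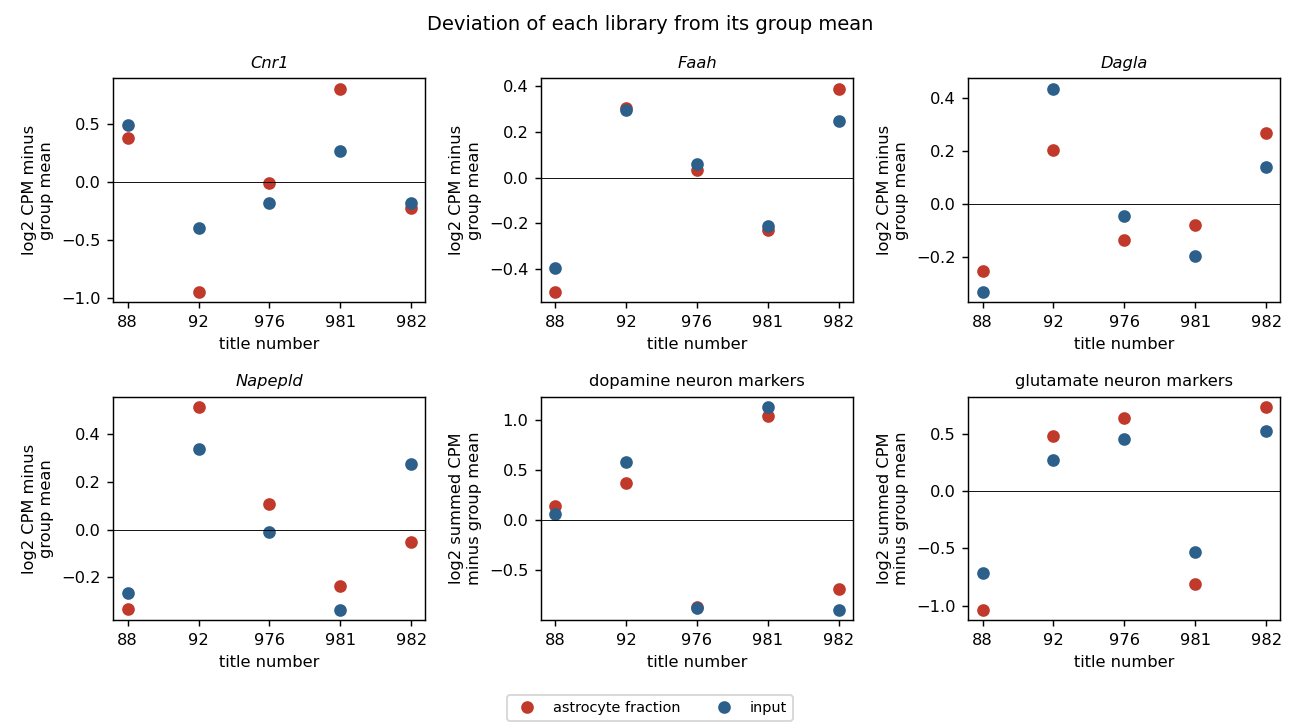
Deviation of log2 CPM from the mean of its own group for Cnr1, Faah, Dagla and Napepld, and of the log2 summed CPM of dopamine neuron markers and glutamate neuron markers, by title number. Red points are the astrocyte fraction and blue points the input; in both groups Cnr1 is high in the numbers 88 and 981, where Faah, Dagla, Napepld and the glutamate neuron markers are below the group mean.

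The genes whose log2 CPM followed each member most closely over the 10 libraries were named as a description, with Pearson's r and no test. For members that differ clearly between the groups, this difference makes up most of such a correlation. For Cnr1 they were Scarb1 (r = 0.994), Bex1 (0.992) and Doc2a (0.990). For Faah they were Ggt7, Adam11 and Sept5 (each 0.997), for Napepld Lrrtm1 and Ifngr2 (each 0.995), and for Dagla Parp1 (0.974), Amotl1 (0.969) and Vav3 (0.969). For Mgll they were Trim8 (0.997), Lcat (0.997) and Rnf182 (0.997), and for Abhd6 Slc25a5 (0.993), Mark3 (0.992) and Sec14l1 (0.991). Those of Daglb were Ninl (0.984), Mrpl40 (0.979) and Gbp3 (0.978), and those of Abhd12 were Kctd12 (0.944), Arl8b (0.935) and Tuba4a (0.911). Abhd12 had no called difference between the groups (log2 fold change -0.08).

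Other genes of the pathway went both ways. Of 30 tested genes for other receptors, receptor partners, synthesis, breakdown and carrier proteins, 12 were higher, 16 lower and 2 not called, against 33.1% higher and 37.5% lower over all tested genes. Their median log2 fold change was -0.58. Side routes of anandamide synthesis were split. Abhd4, whose hydrolase removes acyl chains from anandamide precursors, was higher at 532 CPM in the astrocyte fraction against 71.0 CPM in the input (log2 fold change 2.90 ± 0.12, adjusted p = 3.47e-10). The acyltransferase gene Pla2g16 (1.68 ± 0.09) was higher as well. Hrasls, a relative of Pla2g16, was lower (-1.83 ± 0.09), as was Inpp5d (-3.64 ± 0.42), a phosphatase gene of blood-lineage cells. Of the phospholipase C genes, which supply diacylglycerol for 2-AG, Plcb3 was higher (2.31 ± 0.05, adjusted p = 6.78e-11), at 106 CPM in the astrocyte fraction and 21.3 CPM in the input. Plcb2 was lower (-3.79 ± 0.34), at 0.109 CPM in the astrocyte fraction and 2.09 CPM in the input. Plcb1 was higher (1.61 ± 0.18), at 219 CPM in the astrocyte fraction and 71.3 CPM in the input. Plcb4 was lower (-2.27 ± 0.25), at 48.9 CPM in the astrocyte fraction and 231 CPM in the input. In all, 5 of 12 tested genes of the other synthesis list were higher and 7 lower.

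Of 7 other breakdown genes, 3 were higher, 3 lower and 1 not called. Naaa, which encodes a lysosomal amidase of fatty acid ethanolamides, was higher at 32.9 CPM in the astrocyte fraction against 16.0 CPM in the input (log2 fold change 1.05 ± 0.19, adjusted p = 0.000109). The phospholipase gene Ddhd1 (1.30 ± 0.09) and the hormone-sensitive lipase gene Lipe (0.55 ± 0.09) were higher. Ddhd2 (-1.68 ± 0.10), Pnpla6 (-0.37 ± 0.07) and the cyclooxygenase gene Ptgs2 (-1.57 ± 0.71) were lower, the last at 0.444 CPM in the astrocyte fraction and not called without the numbers 976 and 982 (adjusted p = 0.185). Of 4 genes for intracellular lipid carriers, 3 were higher, namely the fatty acid binding protein genes Fabp7 (3.23 ± 0.17) and Fabp5 (1.78 ± 0.10) and the sterol carrier gene Scp2 (2.38 ± 0.06). Fabp3 was lower (-2.23 ± 0.10).

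Arachidonic acid, the product of Mgll, is the substrate of prostaglandin synthesis. Of 16 genes for arachidonate release, reuse and prostaglandin metabolism, 6 were higher, 6 lower and 4 not called, a share of calls close to the 70.6% of all tested genes. Their median log2 fold change was 0.23, or -0.05 with library totals. The prostaglandin reductase gene Ptgr2 (2.61 ± 0.08), the acyltransferase gene Lpcat3 (2.26 ± 0.11) and the prostaglandin E synthase gene Ptges (2.18 ± 0.21) were higher. The haematopoietic prostaglandin D synthase gene Hpgds (-3.07 ± 0.24) and the phospholipase genes Pla2g4a (-2.89 ± 0.57) and Pla2g4b (-2.46 ± 0.56) were lower. Their means in the astrocyte fraction were only 0.543, 0.375 and 0.366 CPM. Both phospholipase genes had no counts in at least 1 library of that group. Of 7 genes for lysophosphatidylserine, a substrate of ABHD12, 4 were higher, among them Lpcat3 and the phosphatidylserine enzyme genes Pisd (1.45 ± 0.06) and Ptdss1 (1.02 ± 0.05). The receptor gene Gpr34 (-4.20 ± 0.29) and the phospholipase gene Pla1a (-1.93 ± 0.51) were lower, at 0.277 and 0.107 CPM in the astrocyte fraction. Pla1a had no counts in at least 1 library of that group.

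Among 17 other genes of the alpha/beta hydrolase domain family, to which Abhd6 and Abhd12 belong, 12 were higher, 3 lower and 2 not called, against 33.1% higher and 37.5% lower over all tested genes. Their median log2 fold change was 0.92. Beside Abhd4, the higher genes included Abhd3 (2.73 ± 0.07) and the lipid droplet gene Abhd5 (1.65 ± 0.09). Abhd8 (-0.34 ± 0.12), Abhd17a (-0.33 ± 0.07) and Abhd18 (-0.45 ± 0.18) were lower. Without the numbers 976 and 982 (same edgeR test), the calls of Abhd17a (-0.17, adjusted p = 0.166) and Abhd18 (-0.43, adjusted p = 0.100) were lost. Abhd10 was then called higher (0.39, adjusted p = 0.0431), so that 13 genes of the family were higher and 1 lower. The call of Abhd18 was also lost without some single libraries (adjusted p up to 0.142). With library totals, 10 were higher and 4 lower.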

How the data were processed

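The authors deposited 1 table of 18464 genes of estimated counts per gene, which the authors did not scale before they were deposited, and a normalized log2 value per library that the authors centred on the input median, per the file headers and values. CASAVA 1.8, DESeq and mm10 appear in the submitters' processing notes. No source used here states the aligner, counting tool or strand setting. Each gene had at least 5 counts in all libraries of a group, so lower genes are not analysed here.

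Counts were rounded and tested over all genes with edgeR 4.0.16 in R 4.3.3 (TMM, filterByExpr with a minimum count of 10, robust quasi-likelihood test, prior count 2, Benjamini-Hochberg adjusted p under 0.05); 17672 genes were tested and 792 filtered out. All 8 members passed. SEs come from log2 CPM. Ratios used 0.5 added counts and exact permutation tests. Exon lengths, as the union of all exons of a gene, and overlaps came from GENCODE M21. The alternatives were DESeq2 1.42.0, limma 3.58.1 on the authors' log2 values, library totals, other filters, a replicate block and left-out libraries.

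Deviations from group means correlated at 0.189 to 0.493 between libraries of the same title number, against a mean of -0.079 between different numbers. The astrocyte fraction library 982 (0.189) did not correlate best with the input library of its own number. On this basis the numbers were taken as pairs in that block. The members and lists were chosen with earlier results of these data known. Named list genes are the up to 3 called genes per direction with the smallest adjusted p. Cnrip1, Pparg, Plcb1, Plcb4 and Abhd10 are named outside this rule and were chosen after their values were seen. Some results that these rules would name are not reported here.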

Additional observations from a re-analysis of the deposited data

Results flagged for a closer look

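The input library 92 stood apart from the other input libraries in the log2 ratio of Mgll to Dagla counts, at -0.23, with a gap to its nearest neighbour of 0.748 of the range of the group; this is above Dixon's 95% critical value for 5 values. The same library had the highest Dagla level of all libraries. Of 24 groups of 5 values checked, this was the 1 that exceeded the value, and chance alone gives about 1 in 20.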

How the results depend on the processing

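All 7 member calls kept their direction and their call under the 19 alternatives, except Daglb with library totals (0.11). Abhd12 turned positive without the astrocyte fraction library 976 (0.026) and without the numbers 976 and 982 (0.10), and with single libraries left out it ran from -0.11 to 0.026. The number of called members was 7 or 8. The replicate block, with the title number as a term, changed no member call; under the pairing the sign-flip test gave the same differences, 2.29 for Mgll to Dagla, -1.01 for Dagla to Daglb and 1.14 for Abhd6 to Abhd12, at an adjusted p of 0.0833, since 5 pairs allow no p under 0.0625. Without the numbers 976 and 982, 3 against 3 libraries allow no p under 0.1, and the differences were 2.35, -0.999 and 1.09. With single libraries left out, Faah to Napepld ran from -0.31 to -0.14, Mgll to Dagla from 2.19 to 2.34, Dagla to Daglb from -1.11 to -0.90 and Abhd6 to Abhd12 from 1.09 to 1.20. Higher genes were 46.9% of the called genes, 34.0% with library totals and 50.03% without the numbers 976 and 982. The lowest depth, 3845554 counts in the astrocyte fraction library 92, limits the precision of Cnr1, Napepld and Faah, which had 14, 35 and 50 counts there; without number 92 in both groups, an alternative chosen after seeing the data, their log2 fold changes were -2.18, -2.19 and -2.32.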
